A study of Mus musculus with 6 samples.

Results

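Of the 6 RNA-seq libraries of mouse WNT medulloblastoma in this series, 2 held almost no transcript of Snap25, a presynaptic fusion protein of mature neurons, and these neuron-poor libraries are described here against the other 4. They were chosen by 1 value, a Snap25 level under 5 raw CPM. CPM is a gene's count scaled to a fixed total of counts per library. Control 1 and shIft88 3 were inside that threshold, at 0.581 and 0.634 raw CPM. The nearest library outside it was shIft88 2 at 48.3, followed by control 2 at 75.01, shIft88 1 at 94.6 and control 3 at 246. No library lay near the threshold, and each side of it held libraries of both labelled groups. Because Snap25 in these same libraries drew the line, every difference between the sides is given as a description and carries no p-value.

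The 3 control libraries came from a mouse brain tumour model of WNT medulloblastoma, and the 3 shIft88 libraries from the same model with a short hairpin RNA, named sh2-Ift88 in the labels, against Ift88. The Ift88 protein belongs to the intraflagellar transport machinery, which assembles cilia. By its title the series is concerned with how primary cilia bear on translation and cell division, and its design text sets the knockdown tumours beside the controls. Not given in the sources used here are the age and strain of the mice, the alleles and promoter behind the tumours, the delivery of the hairpin and the margin taken at dissection. Nothing in the labels ties each library to an animal of its own, so the p-values below measure the spread between these libraries, which may be technical.

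Medulloblastoma is a malignant tumour of the hindbrain. Its WNT subgroup carries stabilised beta-catenin, which enters the nucleus with TCF and LEF factors and switches on targets that include secreted and intracellular inhibitors of the pathway itself, and it is thought to arise from the dorsal brainstem rather than from granule neuron precursors. A piece of such a tumour can include cerebellar neurons, glia, vessels and immune cells, whose RNA is sequenced together with that of the tumour. In bulk RNA, fewer cells of a type and less RNA per cell cannot be told apart.

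Levels below are CPM after TMM scaling of library size, which matches libraries on the bulk of their genes, given for control 1 and shIft88 3 and then, for the neuron-rich side, in the order control 2, control 3, shIft88 1, shIft88 2. Gene counts summed to between 26802618 and 33772559 per library. The libraries also differed in ways that crossed the sides. Rows of olfactory receptor genes with at least 1 count, of 1249, numbered 492 in control 2, 564 in shIft88 2 and 387 in shIft88 3 but 24 to 38 in the other 3. Another 13 rows, called satellite-like here with no check of their sequence, took 44.6% of the gene counts of shIft88 3 and 0.0275% to 9.68% elsewhere. They were picked for a high level in shIft88 3 and far lower levels in control 1 and shIft88 1, so the choice fixed that contrast. The share of reads that did not align was also highest in shIft88 3, at 10.2% against 2.93% to 3.96%. Each side held libraries with few and with many olfactory receptor rows, so values within each set are given beside some results, with 1 neuron-poor library in each set. Sex-linked genes also differed among the libraries, with values given at the end. The part of these features in the differences was not tested. Ift88 itself was at 13.8 and 14.4 CPM in the neuron-poor libraries and at 19.7, 13.7, 14.7 and 16.0 in the neuron-rich ones, so each library labelled shIft88 lay within the range of the controls, and the label stands unchecked by this transcript.

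The other 4 markers of normal brain followed Snap25. Snap25 was at 0.544 and 1.06 CPM in the neuron-poor libraries and 67.9, 199, 90.3 and 44.2 in the neuron-rich ones. Gabra6, the GABA receptor subunit of cerebellar granule neurons, had no count in control 1 and 5 counts in shIft88 3 (0 and 0.312 CPM) against 17.3, 77.2, 21.1 and 18.4 CPM. Myelin basic protein, Mbp, of oligodendrocytes was at 1.12 and 0.873 against 32.3, 88.6, 14.5 and 24.2 CPM. Gfap, the astrocyte intermediate filament, was at 0.393 and 1.75 against 71.6, 188, 37.5 and 67.1 CPM, and the astrocyte water channel Aqp4 at 0.151 and 1.62 against 46.6, 132, 47.2 and 64.8 CPM. The threshold itself fixed the distance of Snap25. The other 4 were at least 2-fold lower with no overlap between the sides, as were 8.27% of all genes tested. Among the neuron-rich libraries control 3 was the highest for each of the 5.

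**Figure D1:**
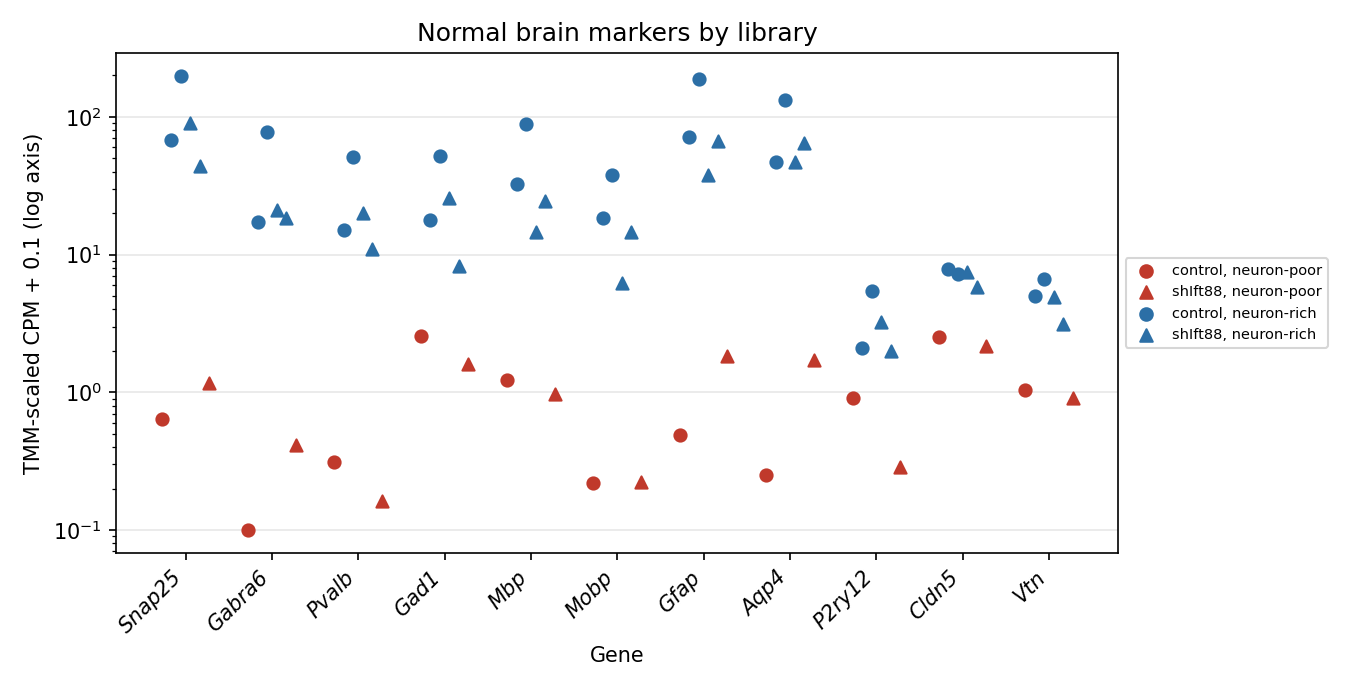
TMM-scaled CPM plus 0.1 on a log axis for 11 markers of normal brain cells in each of the 6 libraries (circles control, triangles shIft88, red neuron-poor, blue neuron-rich; each point is 1 library). Snap25 sits at 0.544 and 1.06 CPM in the red libraries and between 44.2 and 199 in the blue ones. The red points lie under the blue ones for every marker drawn, because all 11 are genes at least 2-fold lower with no overlap. Of 16 endothelial genes, 14 did not meet that rule, nor did 13 of 15 genes of mural cells and fibroblasts.

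Across all 16768 genes that passed the filter on low counts, 1387 genes (8.27%) were at least 2-fold lower in the neuron-poor libraries with no overlap between the sides, and 333 genes (1.99%) were at least 2-fold higher with no overlap. These are called separated below, and each list count is to be read beside these shares of all genes. The rule has no error rate and no test behind it: genes with no difference can meet it through the spread between libraries, and such genes may make up much of a share as small as that of the higher genes. The median log2 fold change of all genes, neuron-poor minus neuron-rich, was 0.026, with quartiles at -0.37 and 0.31. Higher genes made up 19.4% of the separated ones after TMM scaling but 3.19% with library totals alone (77 higher, 2336 lower), a scaling that moved the median of all genes to -0.44. With each library left out in turn, 1572 to 2449 genes were separated lower and 352 to 1090 higher. An absence of overlap is easier to meet with fewer libraries, and every such count was above 1387 and 333. Sensitivity to a particular library cannot be told apart from that effect of the rule. The counts moved by over 1.5 times without control 1 (871 higher), without shIft88 2 (821 higher) and without shIft88 3 (2449 lower, 1090 higher). Within the set with few olfactory receptor rows (control 1 against control 3 and shIft88 1) and the set with many (shIft88 3 against control 2 and shIft88 2), 996 of the 1387 lower genes and 163 of the 333 higher genes were at least 2-fold apart in both, where the absence of overlap had already fixed the direction.

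Genes of mature neurons lay low together in the neuron-poor libraries. Of 25 listed genes of neurons and synapses, all of which passed the filter, 19 were separated lower and 0 higher, with a median log2 fold change of -2.56 (-3.23 without shIft88 3). Their summed level was 159.9 and 156.8 CPM in the neuron-poor libraries and 340 to 768 in the neuron-rich ones. Cplx1, a complexin that clamps vesicle release, was at 0.121 and 0.250 against 6.14, 21.5, 6.81 and 3.12 CPM. Syn2, a synapsin of the vesicle surface, was at 0.212 and 0.437 against 7.44, 23.8, 10.9 and 5.13 CPM. The 6 members that were not separated included the vesicle GTPase Rab3a, at 19.5 and 13.7 against 16.1, 34.1, 17.9 and 15.3 CPM. A further pair of neuronal members was high in 1 neuron-poor library each: the tubulin regulator Stmn2 was at 40.2 and 1.06 CPM, and the endosomal protein Nsg2 at 0.696 and 34.3 CPM, in control 1 and shIft88 3.

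The cerebellar neuron lists had the lowest medians of the 29 lists. Among 12 genes of granule neurons, the excitatory cells of the cerebellar cortex, 11 were separated lower and 0 higher, with a median of -6.21 (-4.89 without control 1, -7.27 without shIft88 3). Their summed level was 32.7 and 32.8 CPM against 141 to 520. Cbln1, a synaptic organiser secreted by granule neurons, was at 0.212 and 0.187 against 13.998, 41.1, 198 and 19.6 CPM. Neurod1, a transcription factor of these neurons, was at 0.0605 and 0.187 against 5.85, 22.5, 7.997 and 6.85 CPM, and the giant cadherin Fat2 at 0.272 and 0.936 against 43.4, 102, 39.1 and 24.97 CPM. The member outside this pattern was Etv1, an ETS transcription factor, at 26.5 and 26.1 against 35.8, 31.5, 20.5 and 13.5 CPM.

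Purkinje cells are the output neurons of the cerebellar cortex, and 8 of their 12 listed genes were separated lower and 0 higher. The median was -5.71, or -4.68 with genes at 0 in both neuron-poor libraries held at the bound that 3 counts per library allow. It was -4.21 without control 1 and -7.82 without shIft88 3. Ppp1r17, a phosphatase inhibitor of Purkinje cells, had no count in either neuron-poor library and 4.97, 15.8, 5.68 and 1.98 CPM in the others, which makes it at least 51.2-fold lower. Pcp4, a calmodulin-binding protein, was likewise at 0 in both against 1.40, 3.56, 3.31 and 1.17 CPM, at least 17.0-fold lower. The calcium buffer Pvalb was at 0.212 and 0.0624 against 14.9, 50.6, 19.8 and 10.9 CPM. Itpr1 and Homer3 were among those not separated: the calcium release channel Itpr1 was at 341 and 540.0 against 542, 741, 572 and 717 CPM, and the scaffold protein Homer3 at 41.5 and 66.1 against 33.0, 35.0, 43.1 and 36.8 CPM. Of the 9 listed genes of inhibitory neurons, 7 passed the filter and 4 were separated lower, with a median of -2.46 (-3.39 without shIft88 2, -3.87 without shIft88 3). Gad1, which makes GABA, was at 2.45 and 1.497 against 17.9, 51.7, 25.7 and 8.22 CPM, and the vesicular GABA transporter Slc32a1 was at 0 in both neuron-poor libraries against 1.49, 5.21, 3.28 and 1.04 CPM, at least 19.8-fold lower.

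Glial genes were low in the same 2 libraries. Of 13 oligodendrocyte genes, 12 passed the filter and 8 were separated lower (median -3.69, -2.70 without control 1 and -4.76 without shIft88 3). Mobp, a structural protein of myelin, was at 0.121 and 0.125 against 18.4, 37.5, 6.08 and 14.6 CPM. Mal, a raft protein found in myelin and in epithelia, went the other way, at 199 and 118 against 62.7, 23.7, 60.8 and 60.6 CPM, and was the list's 1 member separated higher; with it, the summed level of the list overlapped between the sides, at 222 and 142 CPM against 128 to 291. Of 17 astrocyte genes, all passed the filter, 12 were separated lower and 0 higher (median -2.86), with a summed level of 683 and 749 CPM against 985 to 1752. Mlc1, a membrane protein of astrocyte endfeet, had no count in either neuron-poor library against 7.31, 24.3, 11.1 and 9.33 CPM, at least 93.7-fold lower. Sparcl1, a secreted matrix protein, was at 25.3 and 27.3 against 125, 319, 179.5 and 151 CPM. Apoe, the lipid carrier, and Gja1, the gap junction protein connexin 43, kept levels within the neuron-rich range: Apoe was at 271 and 309.9 against 219.8, 332, 489.8 and 745 CPM, and Gja1 at 259 and 273 against 235, 124, 479 and 355 CPM. Among 7 genes of oligodendrocyte precursors, 5 passed the filter and, beside 8.27% of all genes, 2 were separated lower. Pdgfra, the receptor of platelet-derived growth factor A, was not among them, at 342 and 277 against 283, 481, 248 and 594 CPM.

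Among immune, blood and vascular genes, the microglia and macrophage list had the most members separated. Of 17 microglia and macrophage genes, 10 were separated lower and 0 higher (median -1.46, -2.36 without control 1 and -0.76 without shIft88 3). The microglial purine receptor P2ry12 was at 0.817 and 0.187 against 2.01, 5.36, 3.14 and 1.88 CPM, and Csf1r, the receptor for colony-stimulating factor 1, at 13.1 and 4.37 against 20.01, 26.4, 38.4 and 23.3 CPM. Tmem119, a microglial marker that bone-forming cells also use, was not lower, at 91.3 and 63.9 against 57.1, 53.3, 68.1 and 72.5 CPM. The 5 of 7 blood genes that passed the filter had a median of -1.86 (-2.61 without shIft88 3), with 0 separated, because the haemoglobin genes were also low in shIft88 1; Hbb-b1 was at 6.84 and 6.11 against 51.1, 39.7, 6.22 and 30.7 CPM, and reads of the near-identical haemoglobin copies may be split between rows. Of 10 lymphocyte genes, 2 passed the filter and 0 were separated. The shares to set beside the counts in these lists are 8.27% of all genes lower and 1.99% higher.

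Among 16 endothelial genes, 2 were separated lower, the tight junction protein Cldn5 at 2.42 and 2.06 against 7.73, 7.09, 7.38 and 5.74 CPM and the blood-brain barrier transporter Slco1c1 at 0.423 and 0.187 against 2.70, 3.88, 7.77 and 3.05 CPM. The median over the endothelial list was -0.29. The efflux pump Abcb1a, also a barrier gene, had its highest level in control 1, at 909 and 187 against 31.7, 19.6, 33.3 and 345 CPM, with overlap between the sides. Of 16 genes of mural cells and fibroblasts, 15 passed the filter and 2 were separated lower (median -0.23, above 0 without control 2 or without shIft88 3, at 0.052 and 0.13): Vtn, the adhesive glycoprotein vitronectin, at 0.938 and 0.811 against 4.87, 6.57, 4.86 and 3.05 CPM, and the collagen gene Col3a1 at 823 and 743 against 1647, 2155, 1616 and 1416 CPM. The 2 of 16 endothelial genes and 2 of 15 genes of mural cells and fibroblasts are near the 8.27% of all genes separated lower. These counts are not a result about either list. The pericyte gene Rgs5 was at 105 and 105 against 144, 45.7, 109.9 and 119.9 CPM, and the matrix proteoglycan Dcn at 1138 and 1156 against 1397, 80.2, 1389 and 1018 CPM. Of 12 genes of ependyma and choroid plexus, 8 passed the filter and 2 were separated lower, beside the same 8.27% of all genes. The median of -0.80 turned to 0.22 without control 2, was -0.20 without shIft88 1, and was -1.84, -1.43 and -1.43 without control 1, control 3 and shIft88 2, so it had no settled direction. Otx2, a homeobox factor of the choroid plexus that medulloblastomas can also express, was at 336 and 260.0 against 427, 31.3, 272 and 308 CPM, with control 3 the low library.

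**Figure D2:**
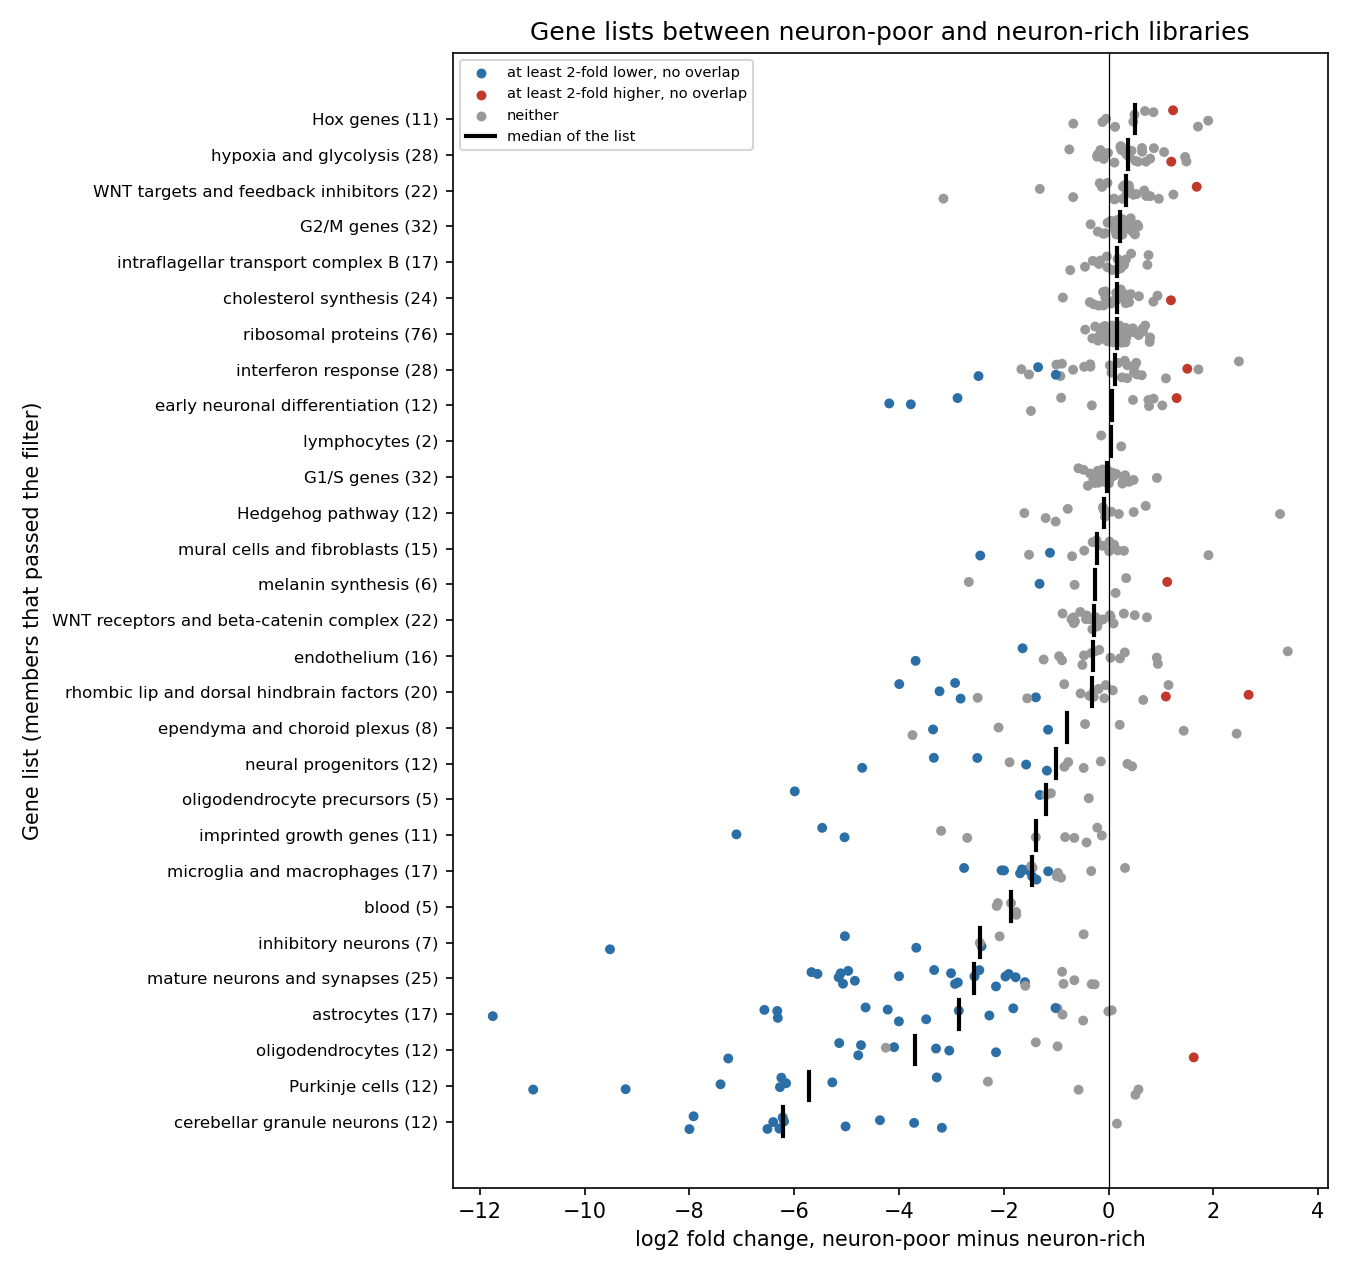
Log2 fold change, neuron-poor minus neuron-rich, for every member of 29 gene lists that passed the filter (number in brackets), each point 1 gene and each black bar the list's median. Granule neuron genes have a median of -6.21 and Purkinje genes of -5.71, while ribosomal proteins, G1/S and WNT target genes centre near 0; values of genes with no count on the neuron-poor side are fitted and depend on the prior count.

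With the 5 markers of normal brain near 0, genes of the WNT pathway were expressed in both neuron-poor libraries. Of 25 listed WNT targets and feedback inhibitors, 22 passed the filter, 0 were separated lower and 1, Sp5, was separated higher. That count is near the 1.99% of all genes separated higher and is not a result about the list. The median was 0.33, against 0.026 for all genes. It was 0.07 without control 1 and 0.49 without shIft88 3. With library totals alone it was -0.14, where the median of all genes was -0.44. Measured from the median of all genes, the list stood at 0.30 after TMM scaling and at 0.31 with library totals alone. The summed level of the list was 7516 and 5728 CPM in the neuron-poor libraries and 4361 to 6232 in the neuron-rich ones. The list's median was 0.90 within the set with few olfactory receptor rows and 0.16 within the set with many.

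Sp5 is a zinc finger factor and a direct target of beta-catenin with TCF and LEF. It was at 142 and 73.9 CPM in the neuron-poor libraries and 51.6, 2.69, 43.7 and 38.7 in the neuron-rich ones, where control 3 stood far under the others. The log2 fold change was 1.68 (SE 0.92). The log2 difference of Sp5 was 3.69 within the set with few olfactory receptor rows. Within the set with many it was 0.725, which is less than 2-fold. Axin2, a scaffold of the beta-catenin destruction complex and a feedback inhibitor, was at 763 and 364 against 327, 360.2, 319.7 and 509 CPM and overlapped. Promoters are shown for Sp5, Axin2 and Gabra6, as the separated target, a target that was not separated and a granule neuron gene that was nearly absent. Each is the 250 bases before the RefSeq transcription start on GRCm38.p6, on the gene's strand, credited to RefSeq; the counts were made on mm9. Capitals mark CTTTGA, a core of the sites that TCF and LEF factors bind, or the longer CTTTGAT that contains it. Both strands were searched (TCAAAG and ATCAAAG in reverse).
Sp5, chr2:70474673-70474922, plus strand: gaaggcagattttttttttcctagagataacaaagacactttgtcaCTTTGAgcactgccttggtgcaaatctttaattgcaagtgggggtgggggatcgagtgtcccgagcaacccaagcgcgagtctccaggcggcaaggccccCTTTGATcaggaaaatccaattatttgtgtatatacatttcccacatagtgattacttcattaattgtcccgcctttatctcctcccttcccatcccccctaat
Axin2, chr11:108920099-108920348, plus strand: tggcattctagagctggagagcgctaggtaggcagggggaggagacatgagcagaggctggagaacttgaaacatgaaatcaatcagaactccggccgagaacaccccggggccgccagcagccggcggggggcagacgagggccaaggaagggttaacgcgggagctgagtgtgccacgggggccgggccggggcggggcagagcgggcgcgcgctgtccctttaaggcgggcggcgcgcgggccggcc
Gabra6, chr11:42321073-42321322, minus strand: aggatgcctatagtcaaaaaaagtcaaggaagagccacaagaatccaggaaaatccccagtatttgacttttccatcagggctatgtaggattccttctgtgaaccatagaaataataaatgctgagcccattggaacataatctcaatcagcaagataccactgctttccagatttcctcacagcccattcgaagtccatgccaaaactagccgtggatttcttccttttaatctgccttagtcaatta
The Sp5 window held 2 core matches, which began 204 and 104 bases before the start, and the second was also the 1 match to the longer form. The Axin2 and Gabra6 windows held 0, which says nothing of sequence outside these windows. Of 32851 promoter windows of this length, 13.8% held the core and 3.21% the longer form, so a match is a description of the letters and not a site.

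The other abundant targets were high on both sides. Wif1, a secreted protein that binds WNT ligands, was at 2209 and 2519 CPM in the neuron-poor libraries and 1735, 1344, 3051 and 1726 in the neuron-rich ones. Nkd1, which binds Dishevelled and dampens the pathway, was at 875 and 556 against 263, 300.0, 533 and 462 CPM: both neuron-poor libraries were above all the others, by less than 2-fold on average (log2 fold change 0.96, SE 0.41). Apcdd1, a membrane inhibitor, was at 1034 and 535 against 357, 1082, 713 and 635 CPM. Notum, an enzyme that inactivates WNT ligands by removing their lipid, was at 388 and 184 against 139, 192, 133 and 164 CPM, and Lef1, which carries beta-catenin to DNA, at 83.5 and 107 against 80.4, 72.3, 68.9 and 69.1 CPM. Among 23 genes of receptors and the beta-catenin complex, 22 passed the filter and 0 were separated in either direction (median -0.27). Beside 8.27% of all genes separated lower and 1.99% higher, that count is not a result about the list. Beta-catenin itself, Ctnnb1, was at 1349 and 954 against 835, 752, 798 and 841 CPM, and the receptor Fzd7 at 187 and 146 against 102, 103, 64.5 and 128 CPM. Both had their 2 highest values in the neuron-poor libraries.

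**Figure D3:**
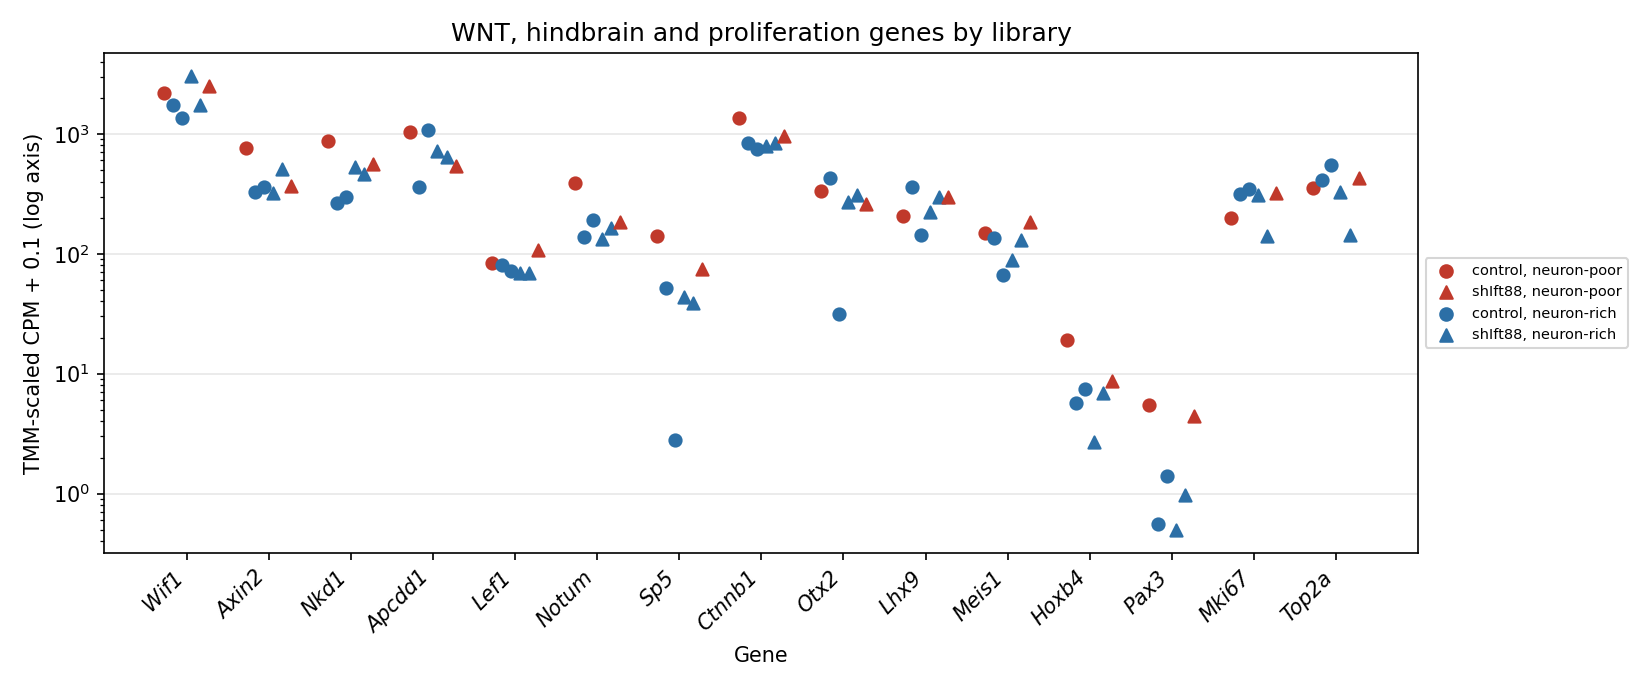
TMM-scaled CPM plus 0.1 on a log axis for 15 WNT, hindbrain and proliferation genes in each library (symbols and colours as in the plot of normal brain markers). The red points of Wif1 (2209 and 2519 CPM), Lef1 (83.5 and 107) and Lhx9 (205 and 298) lie among or just above the blue ones, while Sp5, Hoxb4 and Pax3 have both red points above all the blue ones.

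Regional identity genes were mixed. Of 29 factors of the rhombic lip and dorsal hindbrain, a germinal zone of the developing hindbrain, 20 passed the filter. Lhx9, a LIM homeobox factor, was at 205 and 298 against 362, 144, 225 and 297 CPM, and the homeobox cofactor Meis1 at 149 and 184 against 136, 66.2, 88.8 and 129 CPM. Beside 8.27% of all genes, 5 members were separated lower: Zic1, Barhl1, Barhl2, En2 and Gdf7. Several of these mark granule neuron progenitors or the cerebellum. En2 was at 1.06 and 1.25 against 4.94, 20.3, 5.20 and 5.77 CPM and Zic1 at 10.1 and 27.0 against 39.9, 86.4, 44.4 and 27.7 CPM, with shIft88 3 just under shIft88 2. Among the 2 members separated higher, beside 1.99% of all genes, was Pax3, a dorsal neural tube factor. Pax3 was at 5.35 and 4.30 against 0.455, 1.31, 0.396 and 0.873 CPM, a log2 fold change of 2.67 (SE 0.61). Of 23 Hox genes, 11 passed the filter, 1 was separated higher and 0 lower (median 0.50), beside 1.99% and 8.27% of all genes. That gene, Hoxb4, which patterns the posterior hindbrain, was at 19.1 and 8.61 against 5.65, 7.31, 2.60 and 6.81 CPM. The Hox median was 1.24 within the set with few olfactory receptor rows and -0.04 within the set with many, -0.02 without control 1 and 1.08 without control 3.

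Progenitor genes divided. Of 17 genes, 12 passed the filter. Beside 8.27% of all genes separated lower and 1.99% higher, 5 were separated lower (Sox1, Sox2, Fabp7, Dll1 and Ptprz1) and 0 higher. The median was -1.01. Fabp7, the lipid carrier of radial glia and Bergmann glia, was at 0.212 and 0.250 against 6.14, 8.30, 4.32 and 5.50 CPM. Sox2, a stem cell factor also made by astrocytes and Bergmann glia, was at 0.0302 and 0.312 against 1.17, 2.39, 1.10 and 1.28 CPM. The intermediate filament genes Vim and Nes were not separated: Vim was at 891 and 494 against 658, 455, 433 and 421 CPM, and Nes at 264 and 46.5 against 126, 49.4, 185 and 66.4 CPM. Of 17 genes of early neuronal differentiation, 12 passed the filter, with a median of 0.075 (-0.31 without shIft88 3). The neuronal RNA-binding proteins Elavl3 and Elavl4 and the factor Nhlh2 were separated lower; Elavl3 was at 0.242 and 0.437 against 4.22, 14.8, 4.44 and 3.46 CPM. Dpysl3, a cytoskeletal regulator of growing axons, was separated higher, at 1799 and 879 against 760.2, 95.5, 745 and 629.8 CPM. Sox4 and Sox11, factors of immature neurons and tumours, overlapped between the sides, with Sox4 at 265 and 351 against 227, 82.7, 234 and 405 CPM and Sox11 at 29.0 and 34.9 against 38.9, 12.1, 15.8 and 13.1 CPM.

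Among listed genes of dividing cells 0 were separated between the sides, beside 8.27% of all genes separated lower and 1.99% higher. Whether 0 departs from those shares was not tested. All 32 listed G1/S genes and all 32 G2/M genes passed the filter, and 0 of either list were separated, with medians of -0.04 and 0.22. The G1/S median was above 0, at 0.097 to 0.17, without control 1, control 3 or shIft88 1. Pcna, the sliding clamp of DNA replication, was at 192 and 173 against 101, 159, 202 and 137 CPM. Mki67, the proliferation antigen, was at 198 and 324 against 313, 347, 311 and 140.0 CPM, and Top2a, which untangles chromosomes, at 355 and 425 against 411, 545, 328 and 144 CPM. The low library for the G2/M genes was shIft88 2, on the neuron-rich side, with a summed level of 884 CPM against 1776 to 3028 in the other 5. The G2/M median was 0.99 without control 1, -0.17 without shIft88 2 and -0.69 without shIft88 3. It was -0.41 within the set with few olfactory receptor rows and 0.90 within the set with many, which holds shIft88 2. The G2/M median thus had no settled direction. All 76 ribosomal protein genes passed the filter and 0 were separated (median 0.15), beside the same shares of all genes. Their summed level was 46202 and 40106 CPM against 28972 to 47669.

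Among listed cilium and Hedgehog genes 0 were separated, beside 8.27% of all genes separated lower and 1.99% higher. In lists this small, 0 is near those shares and is not a result about either list. The 17 genes of intraflagellar transport complex B, which carries cargo into the cilium and includes Ift88, had 0 separated members and a median of 0.16. Ift46 was at 53.3 and 62.4 against 48.8, 40.2, 52.6 and 55.6 CPM. Of 14 Hedgehog pathway genes, 12 passed the filter and 0 were separated (median -0.08, 0.086 without shIft88 3). Smo, the membrane signal transducer of the pathway at the cilium, was at 106 and 138 against 109, 78.8, 123 and 114 CPM. Hhip, which binds Hedgehog ligands and is induced by them, varied widely, at 11.9 and 44.98 against 0.617, 0.346, 12.4 and 18.2 CPM, with the 2 neuron-rich controls far under the other 4 libraries.

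In metabolism, 1 of 28 genes of hypoxia and glycolysis was separated, and it was higher. This count, and that of 1 in 24 genes of cholesterol synthesis below, is near the 1.99% of all genes separated higher. Neither count is a result about its list. Pgk1, a kinase of glycolysis, was at 257 and 71.3 against 59.7, 66.8, 65.6 and 61.3 CPM, so the distance came mainly from control 1. The same library was the highest for Ldha, which makes lactate, at 957 and 313 against 357, 605, 410.3 and 361 CPM. The median of the list was 0.38, -0.21 without control 1 and 0.77 without shIft88 3. Of 24 genes of cholesterol synthesis, 1 was separated higher, Hmgcs1, an early enzyme of the pathway, at 628 and 303 against 163, 149, 234 and 300.1 CPM, with shIft88 3 barely above shIft88 2. Of 28 interferon response genes, 3 were separated lower and 1 higher, near the 8.27% and 1.99% of all genes, so these counts are not a result about the list. The higher gene, Xaf1, a promoter of cell death, was at 32.0 and 15.0 against 7.54, 4.96, 9.27 and 12.9 CPM.

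Several imprinted genes were low in the neuron-poor libraries. Of 14 imprinted growth genes, 11 passed the filter and 3 were separated lower, beside 8.27% of all genes. The median was -1.39 (-2.19 without shIft88 3). The long noncoding RNA Meg3 was at 1.33 and 1.06 against 40.9, 72.8, 35.4 and 17.1 CPM, the zinc finger gene Peg3 at 0.363 and 0.749 against 18.97, 50.8, 23.7 and 9.30 CPM, and Ndn, a regulator of neuronal growth and survival, at 0.0907 and 0 against 4.16, 14.2, 7.77 and 3.19 CPM. The growth factor Igf2 was not separated, at 8.499 and 18.97 against 4.16, 28.5, 33.3 and 106 CPM, and was highest in shIft88 2.

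Among single genes with a mean of at least 10 CPM on the higher side, 355 were separated lower and 181 higher. The named genes lowest relative to the neuron-rich side included, beside Mlc1, Gabra6, Cbln1, Pvalb and Mobp, other genes of neurons. Rnf112, a ubiquitin ligase of the brain, was at 0.0907 and 0.0624 against 10.04, 54.6, 14.4 and 11.1 CPM. Gpm6a, a membrane protein of neuronal processes, was at 0.0605 and 0.686 against 43.9, 129, 75.8 and 39.3 CPM. Eef1a2, the translation elongation factor form of neurons and muscle, was at 0.181 and 0.250 against 24.2, 59.2, 25.1 and 12.2 CPM.

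The 12 genes named for the largest fold higher in the neuron-poor libraries were of several kinds. Mdk, the secreted heparin-binding growth factor midkine, was at 85.3 and 214 CPM against 1.95, 1.73, 2.94 and 35.5, so shIft88 2 stood between the other neuron-rich libraries and the neuron-poor ones (log2 fold change 4.61, SE 0.91). Sytl5, a synaptotagmin-like protein of vesicle traffic, had the smallest SE of the 12, at 7.29 and 22.6 against 0.0974, 0.148, 0.283 and 0.436 CPM (log2 fold change 5.90, SE 0.48). B3galt2, a galactosyltransferase, was at 19.3 and 28.6 against 1.27, 2.74, 1.36 and 3.19 CPM. Ms4a4d, a membrane protein of the MS4A family, was at 14.7 and 13.7 against 1.27, 0.518, 0.650 and 2.58 CPM. Ppp1r3a, a glycogen-targeting subunit of protein phosphatase 1, was at 16.9 and 9.67 against 0.0325, 0, 0.226 and 4.46 CPM.

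The other 7 follow. Efhd1, a mitochondrial calcium-binding protein, was at 273 and 93.3 against 10.7, 5.31, 17.2 and 42.2 CPM. Aldh1a3, which makes retinoic acid, was at 111 and 19.96 against 1.46, 5.46, 3.59 and 12.8 CPM. Sp6, a zinc finger factor of the same family as Sp5, was at 163 and 46.4 against 10.3, 1.68, 9.83 and 41.9 CPM. The actin-binding protein Avil was at 26.6 and 3.56 against 0.650, 0.815, 0.424 and 1.85 CPM, Lrrc55, an auxiliary subunit of potassium channels, at 40.9 and 14.6 against 1.69, 0.790, 2.23 and 8.76 CPM, and Lypd2 at 19.2 and 8.67 against 0.292, 0.0247, 1.89 and 7.01 CPM. Bhmt, which remakes methionine from betaine, was at 235 and 283 against 21.2, 0.815, 63.0 and 138 CPM. Without control 1 the log2 fold change was smaller for all of the 12 except Sytl5 and B3galt2. It went from 4.76 to 0.97 for Lypd2, from 3.27 to 0.85 for Sp6 and from 3.73 to 1.66 for Efhd1. In all 12, shIft88 2 was the highest of the neuron-rich libraries, and it also had the lowest Snap25 of that side. It was also the highest of that side for the Y-linked gene Ddx3y, as both neuron-poor libraries were high for it (values at the end). The part of this library and of these features in the distance between the sides was not tested.

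**Figure D4:**
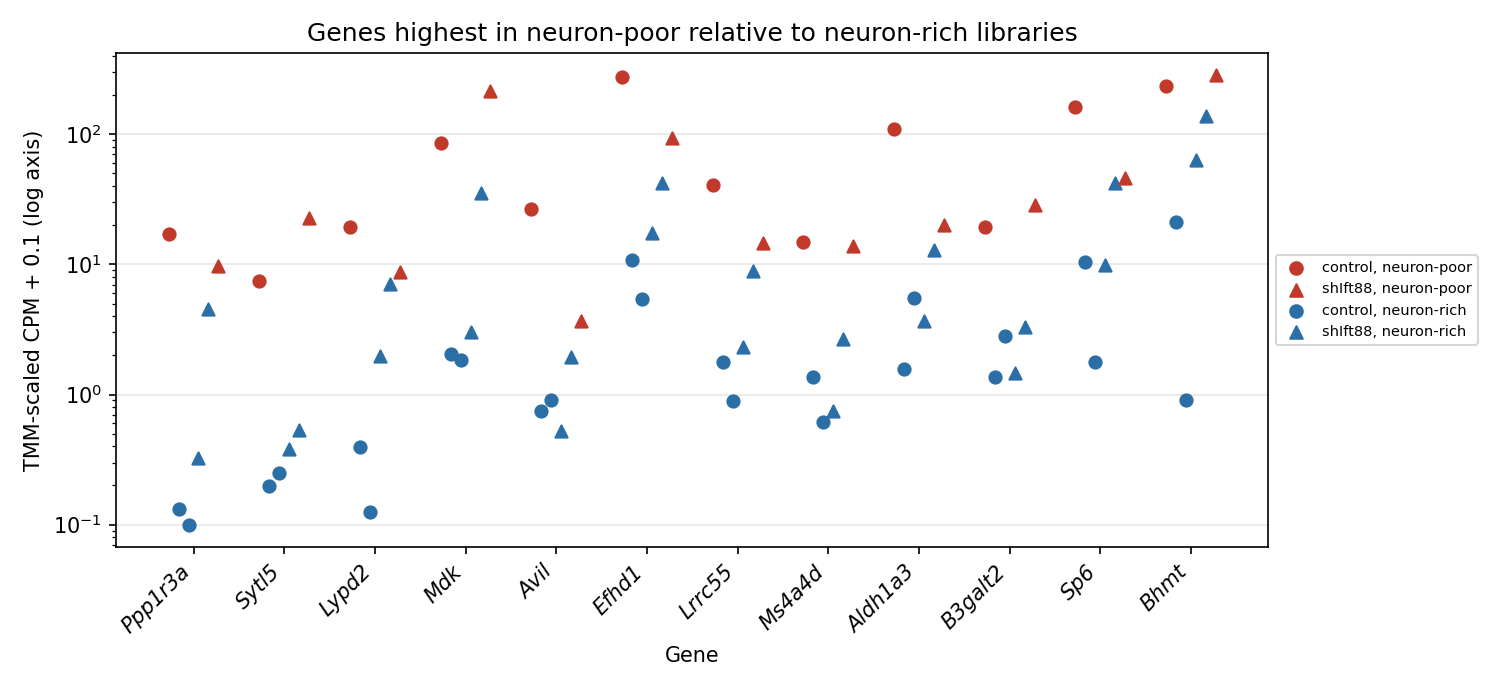
TMM-scaled CPM plus 0.1 on a log axis for the 12 named genes with the largest fold higher in the neuron-poor libraries (symbols and colours as in the plot of normal brain markers). Sytl5 shows a wide gap (7.29 and 22.6 CPM in red, 0.436 or less in blue), while for Sp6 the lower red point (46.4) sits just above the highest blue one (41.9).

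The 2 neuron-poor libraries were not copies of each other. Of 10408 genes at 10 CPM or more in at least 1 of them, 1195 (11.5%) were at least 2-fold apart and 97 at least 10-fold. The other 14 pairs of libraries had 9.35% to 24.8% at least 2-fold apart. With 1 library of each label, these differences have no replicate check. Genes with the largest ratio towards shIft88 3 included Ccnb3, a cyclin of the germ line, at 0.0605 and 35.2 CPM, and Pmch, a neuropeptide precursor, at 0.393 and 35.7 CPM, in control 1 and shIft88 3. Kcnmb2, a potassium channel subunit, was at 0.0907 and 35.3 CPM, and Egfl6, a secreted factor with EGF repeats, at 0.605 and 26.9 CPM. The Purkinje calcium buffer Calb1 was at 0.151 and 16.1 CPM, so shIft88 3 lay in the neuron-rich range of 10.7 to 77.4 while Pvalb, Pcp2, Pcp4 and Ppp1r17 were there at 0.187 CPM or under. For Ccnb3, Pmch, Kcnmb2 and Egfl6, shIft88 3 was above every other library.

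Towards control 1, the largest ratios included genes of matrix, adhesion and axon guidance. Scara3, a scavenger receptor, was at 17.2 and 0.125 CPM in control 1 and shIft88 3, and the guidance cue Sema3c at 25.7 and 0.437 CPM. Lamb3, a laminin chain of epithelial basement membranes, was at 64.1 and 1.62 CPM, and Frem2, another basement membrane protein, at 37.1 and 1.19 CPM. Tnfrsf11b, the secreted decoy receptor osteoprotegerin, was at 262 and 6.61 CPM, but control 3 reached 205 CPM and the lowest library was shIft88 1 at 2.12. Lamb3, Frem2 and Scara3 were highest in control 1 of all 6 libraries.

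**Figure D5:**
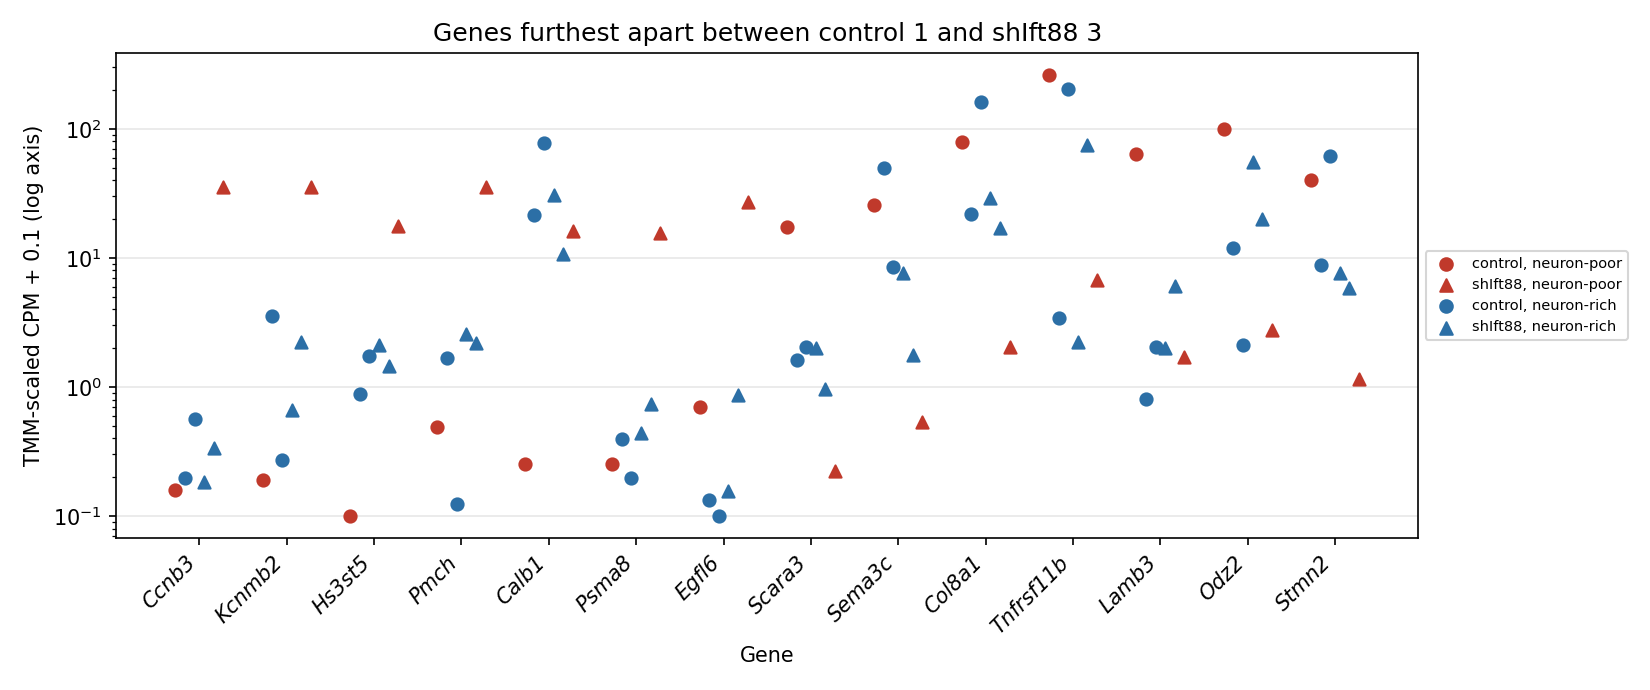
TMM-scaled CPM plus 0.1 on a log axis for 14 genes far apart between control 1 and shIft88 3, with the 4 neuron-rich libraries beside them (symbols and colours as in the plot of normal brain markers). Ccnb3 is at 0.0605 and 35.2 CPM in the 2 red points and Lamb3 at 64.1 and 1.62.

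The labelled groups were not used to draw the sides, and each side holds both, so shIft88 was tested against control with the side as a term. With edgeR's quasi-likelihood test, 0 of 16768 genes (0%) were higher and 0 (0%) lower with a threshold of 0.05 on the adjusted p, whose smallest value was 0.623. Unadjusted, p in this edgeR test was under 0.05 for 620 of 16768 genes, 391 higher and 229 lower. That is a smaller share than the 0.05 of genes that would pass if none differed. DESeq2 called 87 higher and 25 lower, edgeR without a filter called 205 and 80, and limma-voom called 0 and 0. In each of the 29 lists, 0 members passed in edgeR. The log2 fold change of Ift88 was -0.06 (SE 0.30, adjusted p = 0.998, edgeR).

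The genes of smallest p in this fit, none of them near the threshold, had large fold changes within both sides. Xlr3a, a gene on the X chromosome whose reads may be split among close copies, was at 0.938, 0.779 and 0.198 CPM in control 1, 2 and 3 and at 8.93, 11.6 and 19.3 in shIft88 1, 2 and 3. Its log2 fold change was 4.39 (SE 0.61, adjusted p = 0.623, edgeR). Oas1a, an interferon-induced sensor of double-stranded RNA, was at 6.50, 0.877 and 0.938 CPM in controls and 5.82, 8.62 and 31.7 in the shIft88 libraries. Des, the intermediate filament of muscle and pericytes, was at 23.6, 5.29 and 5.33 CPM in controls and 20.1, 41.3 and 96.7 in the shIft88 libraries. Control 1, the neuron-poor control, overlapped the shIft88 libraries for both. Among the lower genes, Egln3, an oxygen-sensing hydroxylase, was at 6.96, 3.12 and 1.48 CPM in controls and 0.113, 0.235 and 0.437 in the shIft88 libraries (adjusted p = 0.740, edgeR), and Epha7, an ephrin receptor, at 13.1, 30.0 and 17.0 CPM in controls and 1.30, 1.14 and 3.37 in the shIft88 libraries (adjusted p = 0.785, edgeR). For these 2 genes every control was above every shIft88 library. The other genes of smallest p, Bcas1 and Btnl7 among the higher and Pcyt2, Kcnf1 and Emid1 among the lower, had adjusted p between 0.623 and 0.830 (edgeR).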

How the data were processed

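Gene expression was measured by RNA-seq in 6 mouse brain tumour libraries, 3 labelled control and 3 labelled shIft88. Per the labels' protocols, the kit was TruSeq Stranded Total RNA, and the submitters' processing notes name BWA and mm9. Not given in the sources used here were the counting program, annotation, strand setting and BWA version, so counts of overlapping, antisense and near-identical genes are uncertain. The deposited values are raw counts per gene in 34591 rows, 1 table per library; the 5 closing tallies entered neither library sizes nor tests, with reads without a feature at 18.8% to 39.5% and ambiguous reads at 0.876% to 4.37% of all tallied reads.

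Sides were set by Snap25 at under 5 raw CPM. The members, lists and named genes were chosen with earlier results of these data known, and genes were named by rank of fold change, level or p within each list and comparison. Genes without a symbol of their own were passed over where a symbol followed in rank. A few genes that ranked high enough are not reported here. Counts were filtered with filterByExpr (16768 genes), scaled by TMM and fitted with edgeR 4.0.16 in R 4.3.3 (glmQLFit, robust=TRUE) with side and group as terms. For the side, only log2 fold changes and SE are given. Each SE, for side or group, was the fold change before shrinkage divided by the square root of the test's F statistic. The printed fold change is shrunk towards 0 by a prior count. A separated gene was at least 2-fold apart with no overlap in CPM. For shIft88 against control, the two-sided quasi-likelihood test was used with Benjamini-Hochberg adjustment at 0.05. A gene at 0 was bounded at 3 counts per library, which covers counting error only. The scripts were tested on simulated data. No pair of libraries agreed within sampling noise. Of the symbols, 29266 matched GENCODE M21, used for names only; promoter sequence is RefSeq's on GRCm38.p6. Alternatives were other scalings, filters, fold thresholds, tools (DESeq2 1.42.0, limma-voom in limma 3.58.1), each library left out, and, added after the data were seen, satellite-like rows left out and sets by olfactory receptor rows.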

Additional observations from a re-analysis of the deposited data

How the results depend on the processing

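The 1387 genes separated lower and 333 separated higher became 2336 and 77 with library totals alone and 873 and 83 at a 4-fold threshold. Without a filter 595 genes were higher. With each library left out in turn, 1572 to 2449 genes were lower and 352 to 1090 higher, the most without shIft88 3. Within the libraries with few olfactory receptor rows 2257 were lower and 1859 higher, and within those with many 907 were higher. Each set holds 3 libraries and was compared by log2 differences without a fit. An absence of overlap is easier to meet with fewer libraries, in the sets and with each library left out. Of the main calls, 1385 lower and 76 higher genes were shared with library totals alone, and 1387 and 326 with the satellite-like rows left out. For shIft88 against control with the side as a term, the count of 0 became 205 higher and 80 lower without a filter and 87 and 25 with DESeq2; the cause was not tested. The other tested settings for these counts stayed within 1.5 times, and choosing sides by the mean of the neuron list gave identical sides. Of the alternatives to list medians, 45 moved by more than the spread used and 187 did not. For Ift88 the log2 fold change lay between -0.41 with library totals alone and 0.12 without control 2. No paired analysis was possible because the labels give no replicate numbers, and numbers in accession order pair no libraries. The shallowest library was shIft88 3, with a TMM-scaled library size of 16029385 against 29797763 to 40504104 in the others.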

Other observations

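Sex-linked genes differed among these mouse libraries, and they were chosen here after their values were seen. Xist, the long noncoding RNA that silences an X chromosome, was at 10.4 and 12.8 CPM in control 1 and shIft88 3 and at 53.4, 90.9, 54.8 and 39.0 in control 2, control 3, shIft88 1 and shIft88 2, so it was among the genes lower in the neuron-poor libraries. The Y-linked helicase gene Ddx3y was at 70.7 and 10.7 CPM in control 1 and shIft88 3 and at 0.0325, 0, 1.47 and 48.8 CPM in the same order of the others. Control 1, shIft88 2 and shIft88 3 had both Xist and Ddx3y above 10 CPM.
Pigment genes differed widely among the libraries. Dct, an enzyme of melanin synthesis, was at 33.2 and 318 CPM in control 1 and shIft88 3 and at 372, 0.198, 229 and 189 CPM in control 2, control 3, shIft88 1 and shIft88 2. Of 10 melanin genes, 6 passed the filter, with a median of -0.26 between the sides that turned to 0.36 without control 1 and 0.28 without control 2. Among these genes 1 was separated lower and 1 higher, beside 8.27% and 1.99% of all genes. In a list this small, these counts are not a result about the list. Mitf, the regulator of pigment cells, was separated lower, at 12.4 and 13.9 against 22.5, 45.6, 38.5 and 24.3 CPM, and Trpm1, a channel of pigment cells and retina, was separated higher, at 16.5 and 14.1 against 6.01, 4.67, 7.74 and 11.5 CPM.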
